A study of Mus musculus with 16 samples.

Results

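The 10 genes described here encode ligands, antagonists and receptor chains of the interleukin-1 and interleukin-4 families. They are Il1r1, Il1rap, Il1rl1, Il1a, Il1b, Il1rn, Il33 and Il18 of the IL-1 family, and Il4ra and Il13ra1 of the IL-4 family. Each was found by its symbol among the 21684 protein-coding genes of the 56941 genes in each of 2 tables of normalized counts, 1 for pancreatic stellate cells (PSCs) and 1 for superior cervical ganglia (SCGs). All 10 were present in both tables. Il4ra and Il1rap were chosen by their measured higher level in cocultured ganglia, so their values in the ganglion comparisons are given as a description without a test. The other members joined them as relatives in the same receptor systems.

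Bulk RNA-seq was performed on 16 libraries to ask how sympathetic ganglia and fibroblasts change each other's transcriptome. SCGs are sympathetic ganglia of the neck, here taken from wild-type C57BL/6J pups at postnatal day 1 to 4 and plated as 8 to 13 explants per well. PSCs were the immortalized mouse line mPSC1, which the labels call fibroblasts, and MEFs were the immortalized line NIH 3T3. Immortalized cells grew on inserts above the explants for about 70 hours, so the cultures shared medium without contact. The 5 groups were PSCs alone (PSC, n = 3), PSCs with ganglia (PSC+SCG, n = 3), ganglia alone (SCG, n = 3), ganglia with MEFs (SCG+MEF, n = 3) and ganglia with PSCs (SCG+PSC, n = 4). Each fibroblast type was thus a single line, every ganglion library pooled explants, and the methods name 4 experimental batches without any label that ties a library to one, so p-values measure the spread between these libraries only.

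In the IL-1 system, IL-1α (Il1a) and IL-1β (Il1b) bind the receptor encoded by Il1r1, and IL-33 binds the receptor ST2 encoded by Il1rl1. Both receptors need the shared accessory chain encoded by Il1rap to signal through MyD88 and NF-κB, and the antagonist encoded by Il1rn blocks Il1r1. IL-18 uses a receptor pair of its own. In the IL-4 system, the chain encoded by Il4ra binds IL-4 and pairs with the chain encoded by Il13ra1 outside the blood lineage, or with the common γ chain in leukocytes, and then signals through JAK kinases and STAT6. Injured peripheral nerve and fibrotic pancreas are both known as sites of IL-1 and IL-4 family signalling.

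The receptor genes Il4ra, Il1rap and Il1rl1 carried most of the results, so the bases just before their annotated starts are shown. Each run holds 250 bases of GRCm39 on the plus strand directly upstream of a GENCODE M39 start, with no annotated exon in it, and CpG dinucleotides are in capitals. Il1rl1 has a distal and a proximal start, and gene counts add the transcripts of both, including those for the soluble form of ST2. The Il4ra, Il1rap and distal Il1rl1 runs lie before the outermost annotated start of the gene. Which starts these cells use was not tested.
Il4ra, chr7:125150829-125151078: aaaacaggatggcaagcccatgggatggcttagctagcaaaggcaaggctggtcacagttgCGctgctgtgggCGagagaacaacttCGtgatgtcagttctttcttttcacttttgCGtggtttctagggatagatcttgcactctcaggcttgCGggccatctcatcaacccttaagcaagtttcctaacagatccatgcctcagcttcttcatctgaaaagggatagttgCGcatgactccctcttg
Il1rap, chr16:26400100-26400349: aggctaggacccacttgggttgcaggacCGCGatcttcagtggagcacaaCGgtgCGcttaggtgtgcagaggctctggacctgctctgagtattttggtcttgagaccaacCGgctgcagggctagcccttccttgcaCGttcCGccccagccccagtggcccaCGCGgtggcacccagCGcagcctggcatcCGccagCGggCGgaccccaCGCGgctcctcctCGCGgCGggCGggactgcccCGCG
Il1rl1 distal start, chr1:40468480-40468729: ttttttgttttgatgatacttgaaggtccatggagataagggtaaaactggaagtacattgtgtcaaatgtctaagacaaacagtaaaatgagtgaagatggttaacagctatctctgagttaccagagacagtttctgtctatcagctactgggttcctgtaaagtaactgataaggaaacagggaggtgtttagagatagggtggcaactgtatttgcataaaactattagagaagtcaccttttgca
Il1rl1 proximal start, chr1:40478537-40478786: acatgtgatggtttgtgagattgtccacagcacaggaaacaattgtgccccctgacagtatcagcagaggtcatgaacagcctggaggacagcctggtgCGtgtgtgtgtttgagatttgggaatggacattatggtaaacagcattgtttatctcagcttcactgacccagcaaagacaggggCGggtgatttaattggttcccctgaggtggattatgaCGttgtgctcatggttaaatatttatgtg

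These windows differed in base composition. The Il1rap window held 21 CpGs at 68.4% G+C, and 16.4% of 32841 mouse RefSeq promoter windows of the same length (GRCm38.p6) held as many or more. The Il4ra window held 6 CpGs at 49.2% G+C, which is the median count of the RefSeq windows. The distal Il1rl1 window held 0 and the proximal one 3. Both strands were searched for the STAT motif TTCNNNGAA, the STAT6 motif (the same ends with 4 bases between them in place of 3), the AP-1 motif TGANTCA and the NF-κB consensus. The only match, with no other motif overlapping it, was a STAT6 motif, TTCATCTGAA, at positions -39 to -30 before the Il4ra start, and 5.85% of the RefSeq windows held that motif. The other shares were 7.02% for STAT, 6.75% for AP-1 and 3.9% for NF-κB.

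In the GENCODE M39 annotation of GRCm39, Il4ra (ENSMUSG00000030748) spans chr7:125151079-125182844, Il1rap (ENSMUSG00000022514) chr16:26400350-26548880 and Il1rl1 (ENSMUSG00000026069) chr1:40468730-40504575, all on the plus strand. Il1r1 lies on the same chromosome as Il1rl1, at chr1:40264174-40356417, and Il1a, Il1b and Il1rn all lie on chromosome 2. Il33 is on chromosome 19, Il18 on chromosome 9 and Il13ra1 on the X chromosome. No member shares exon bases with another gene on its strand, so stranded counting assigns its reads to 1 gene. Union exon length ranges from 2601 bases for Il1b to 15282 for Il1rap, which is why levels of different genes are compared per kb.

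The deposited values were gene counts that the authors divided by DESeq2 size factors, separately for PSC and ganglion libraries, so levels are compared between groups only within a table. Whole reads could be recovered in 14 of the 16 libraries and came to 31900689 to 41632381 per library. The labelled cell types were checked with marker genes. The 7 fibroblast markers summed to 395936 to 682209 in PSC libraries, where 4 or 5 of 9 sympathetic neuron markers were at 0. In ganglia all 9 neuron markers were detected and summed to 116012 to 275437. Ganglia also held RNA of 7 fibroblast, 7 glial and 14 macrophage markers, none of them at 0, so a value for a ganglion is a mixture in which fewer cells of a type and less RNA per cell cannot be told apart. Libraries with the same replicate number deviated together in both tables, and results are therefore given without and with the replicate number as a block.

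The 2 tissues carried different parts of these systems, as seen when normalized counts were divided by exon length. In PSCs alone, Il1rl1 was the most abundant member at 1201 normalized counts per kb (mean, n = 3), followed by Il13ra1 at 469.7, Il4ra at 410.8, Il1r1 at 324.3 and Il1rap at 102.6. Library ranges of Il13ra1 and Il4ra overlapped, as did those of Il4ra and Il1r1. Il18, whose own receptor pair is not in the set, stood at 66.5 per kb, Il33 at 25.3 and Il1rn at 3.42. Il1b was listed at 0 in all 6 PSC libraries and Il1a reached at most 1.97 normalized counts, so neither entered the PSC test. PSCs thus held transcripts for every receptor chain of the set and almost none for Il1a and Il1b.

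In ganglia alone, Il4ra led at 363.1 per kb, followed by Il13ra1 at 158.2, Il1r1 at 128.9 and Il1rap at 97.3. The ligands stood lower, with Il33 at 32.4, Il1a at 12 and Il18 at 6.59. Il1rn came to 11 and Il1b to 1.67. Il1rl1, the leading member in PSCs, was ninth of 10 at 3.96 per kb. The first 5 places kept their order in SCG+MEF and SCG+PSC libraries. Library ranges of Il13ra1 and Il1r1, and of Il1r1 and Il1rap, overlapped in all 3 ganglion groups, so neither neighbouring pair separated, while Il4ra lay above all other members in each of them.

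**Figure D1:**
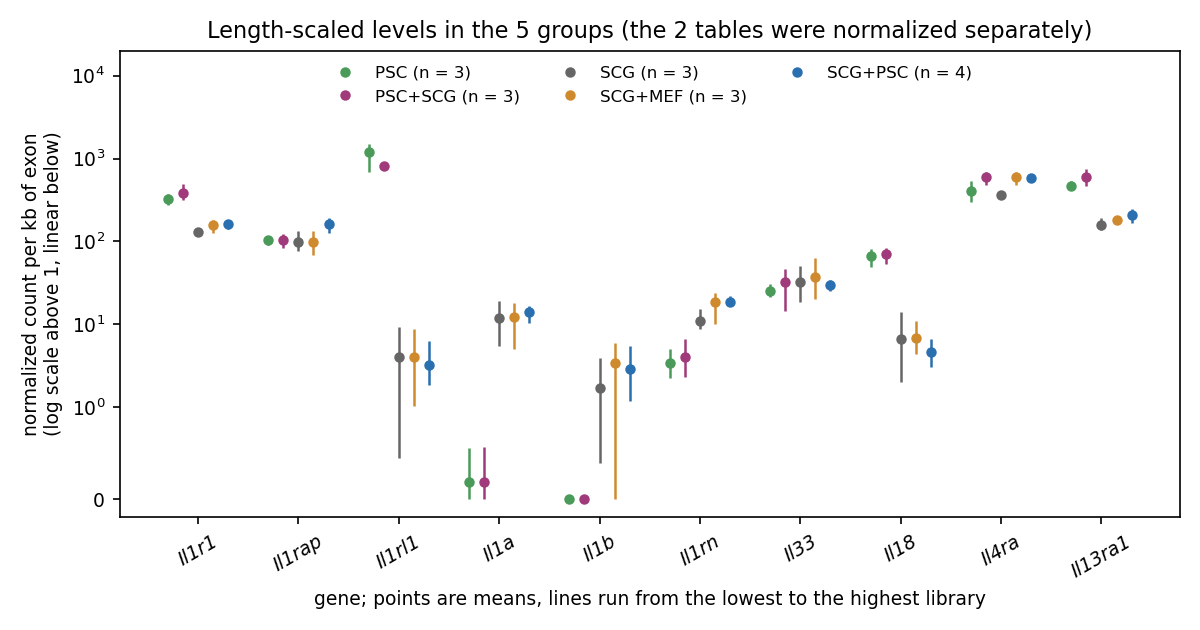
Normalized count per kb of annotated exon (y axis, log scale above 1) for the 10 members (x axis) in the 5 groups. Points are group means and lines run from the lowest to the highest library. Il1rl1 stood at 1201 per kb in PSCs alone and 3.96 in ganglia alone, tables that were normalized separately.

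Coculture with either fibroblast line was accompanied by more Il4ra in ganglia. The 3 SCG libraries held 4092, 3505 and 3271 normalized counts of Il4ra for replicates 1, 2 and 3. The SCG+MEF libraries held 6943, 6245 and 4758. The SCG+PSC libraries held 6395, 5294, 5875 and, for replicate 4, 5577. Every cocultured library lay above every library of ganglia alone, and the ranges of both cocultures overlapped. Group means were 3623 ± 423 (SD, n = 3), 5982 ± 1116 (n = 3) and 5785 ± 471 (n = 4).

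Within replicate numbers, Il4ra was 1.56, 1.51 and 1.80 times the SCG level with PSCs, and 1.70, 1.78 and 1.45 times with MEFs. On the log2(normalized count + 1) scale, the difference from SCG was 0.69 (SE 0.15) with PSCs and 0.71 (SE 0.15) with MEFs. These 2 comparisons share the SCG libraries. Between the cocultures Il4ra differed by -0.02, with a 95% interval of -0.36 to 0.32. Leaving out any 1 ganglion library moved the difference from SCG between 0.62 and 0.79 with PSCs and between 0.60 and 0.87 with MEFs.

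Il1rap, the accessory chain, was higher in ganglia beside PSCs and not beside MEFs, which is the pattern it was chosen for. Ganglia alone held 1169, 2033 and 1260 normalized counts in replicates 1, 2 and 3. Ganglia with MEFs held 1038, 2050 and 1452, or 0.888, 1.01 and 1.15 times the same-numbered SCG library. Ganglia with PSCs held 1934, 2942 and 2415, and replicate 4 held 2540. The SCG+PSC range overlapped that of SCG because replicate 2 was the highest of each group, and within a number the SCG+PSC library was always higher, at 1.65, 1.45 and 1.92 times SCG. Against SCG+MEF the same ratios were 1.86, 1.44 and 1.66.

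The log2 difference of Il1rap was 0.73 (SE 0.28 without and 0.10 with the replicate block) against SCG and 0.72 (SE 0.28 and 0.10) against SCG+MEF. For MEFs against SCG it was 0.01, with a 95% interval of -0.60 to 0.63. Leaving out 1 library gave 0.58 to 0.98 against SCG and 0.47 to 0.96 against SCG+MEF. Replicate 2 of the ganglion groups also held more of the fibroblast collagen gene Col1a1, 132193 normalized counts in SCG against 46898 and 89184 in its sister libraries, and less of the noradrenergic enzyme gene Th, at 8836 against 18795 and 29967. Whether the higher Il1rap of that replicate goes with its cell makeup was not tested.

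**Figure D2:**
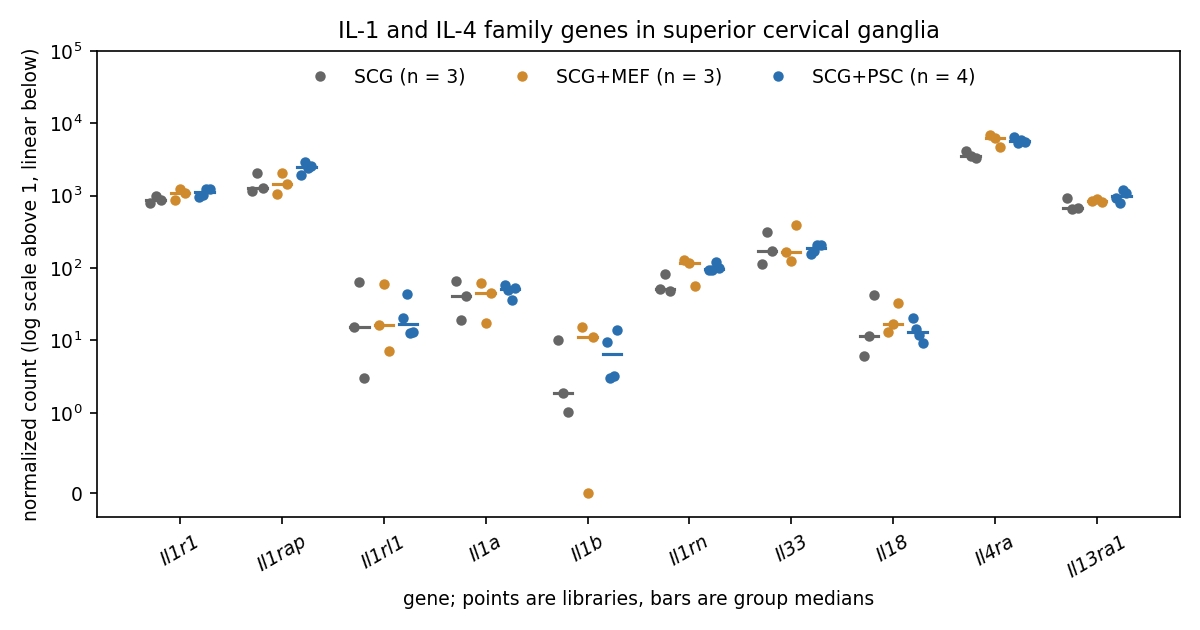
Normalized counts (y axis, log scale above 1) of the 10 members (x axis) in each ganglion library, with points for libraries and bars for group medians. For Il4ra the 3 SCG points lie between 3271 and 4092, below all 7 cocultured points, while Il1b, Il18 and Il1rl1 scatter widely within a group.

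The IL-1 receptor antagonist Il1rn had a higher estimate in both cocultures than in ganglia alone. SCG libraries held 50.6, 83.7 and 48.2 normalized counts, SCG+MEF libraries 131, 118 and 55.8, and SCG+PSC libraries 93, 94.3, 121 and 101. All SCG+PSC libraries lay above all SCG libraries, and the SCG+MEF range overlapped that of SCG. The log2 difference was 0.78 (SE 0.35) with PSCs and 0.68 (SE 0.35) with MEFs, and neither passed limma's test across all genes (adjusted p = 1 without the block in both, 0.347 and 0.638 with it). It was higher in 3 of 3 pairs with either line, and the 95% interval with PSCs, 0.0040 to 1.56 without and 0.12 to 1.44 with the block, was wide.

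The signalling receptor Il1r1 and the IL-13 receptor chain Il13ra1 stood slightly higher beside fibroblasts, and neither was called. Il1r1 ranged from 791 to 981 normalized counts in SCG, 871 to 1221 in SCG+MEF and 960 to 1242 in SCG+PSC. Its log2 difference from SCG was 0.29 (SE 0.16) with PSCs and 0.27 (SE 0.16) with MEFs, and limma's adjusted p was 0.285 and 0.563 with the block. It was higher in 3 of 3 pairs with either line, with block intervals of 0.07 to 0.52 and 0.04 to 0.49 that left out 0 before adjustment over all genes. Il13ra1 ranged from 649 to 913 in SCG, 819 to 903 in SCG+MEF and 781 to 1176 in SCG+PSC. Its log2 differences of 0.35 (SE 0.18) and 0.21 (SE 0.18) had adjusted p-values of 0.397 and 0.798 with the block, and both genes had adjusted p = 1 without it in limma. Il13ra1 was higher in 3 of 3 pairs with PSCs (block interval 0.04 to 0.67) and 2 of 3 with MEFs (-0.11 to 0.53).

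The ligands and ST2 showed no difference that could be separated from replicate spread. Il33 held 113 to 314 normalized counts in SCG, 124 to 394 in SCG+MEF and 155 to 211 in SCG+PSC. Il1a held 19 to 65.8, 17.5 to 62.9 and 36.3 to 58.5 in the same order. Il18 held 6.07 to 42, 13.2 to 32.4 and 9.08 to 20.1. Il1b never exceeded 15.2 and Il1rl1 never exceeded 63.7, and the groups overlapped for both. Their SEs on the log2 scale were 0.99 for Il1rl1 and 1.05 for Il1b without the block, and 0.43 and 0.74 with it. Il1rl1 was highest in replicate 2 of each ganglion group (63.7, 60.4 and 43.6 normalized counts), which the block takes into account.

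A gene was called when limma's Benjamini-Hochberg adjusted p over all genes tested was at most 0.05 and its log2 difference at least 0.5 in size. Without the block, 0 of 10 members were called with PSCs against SCG, where 0.0189% of 15908 protein-coding genes were, and 0 of 10 with MEFs, where the share was again 0.0189%. Against SCG+MEF 0 of 10 were called and the share was 0%. There 488 of the 15908 genes had an unadjusted p under 0.05, a share below the 0.05 expected with no differences. On recovered reads without the block, edgeR also called 0 members in each ganglion comparison, beside backgrounds of 0.0188%, 0.0188% and 0%. DESeq2 called 1, Il4ra, in each comparison with SCG and 0 between the cocultures, beside backgrounds of 0.345%, 0.132% and 0.113%. With the block, the called members were Il4ra and Il1rap with PSCs, Il4ra with MEFs, and Il1rap between the cocultures, beside backgrounds of 1.94%, 0.239% and 1.14%. The same members were called with the block by edgeR (backgrounds of 2.02%, 0.226% and 1.29%) and DESeq2 (2.6%, 0.658% and 2.29%). The calls of Il4ra and Il1rap with PSCs stood in 8 of 9 fits that left out 1 library and were both lost without SCG replicate 3. That of Il4ra with MEFs stood in 5 of 9 and was lost without SCG replicate 1 or 3 or SCG+MEF replicate 1 or 2. That of Il1rap between the cocultures stood in 6 of 9 and was lost without SCG+MEF replicate 1 or 3 or SCG+PSC replicate 1. The 9 fits include those that left out a library of the ganglion group not compared, which left the log2 difference unchanged. This holds for every count out of 9 such fits below. Since Il4ra and Il1rap were picked from these contrasts, nothing is read from the counts of called members. Groups of 3 did not overlap for 2 members (Il4ra and Il1rn) with PSCs and 1 (Il4ra) with MEFs, where 7.12% and 4.98% of genes did not overlap, and for 0 members between the cocultures, where 7.01% did not.

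**Figure D3:**
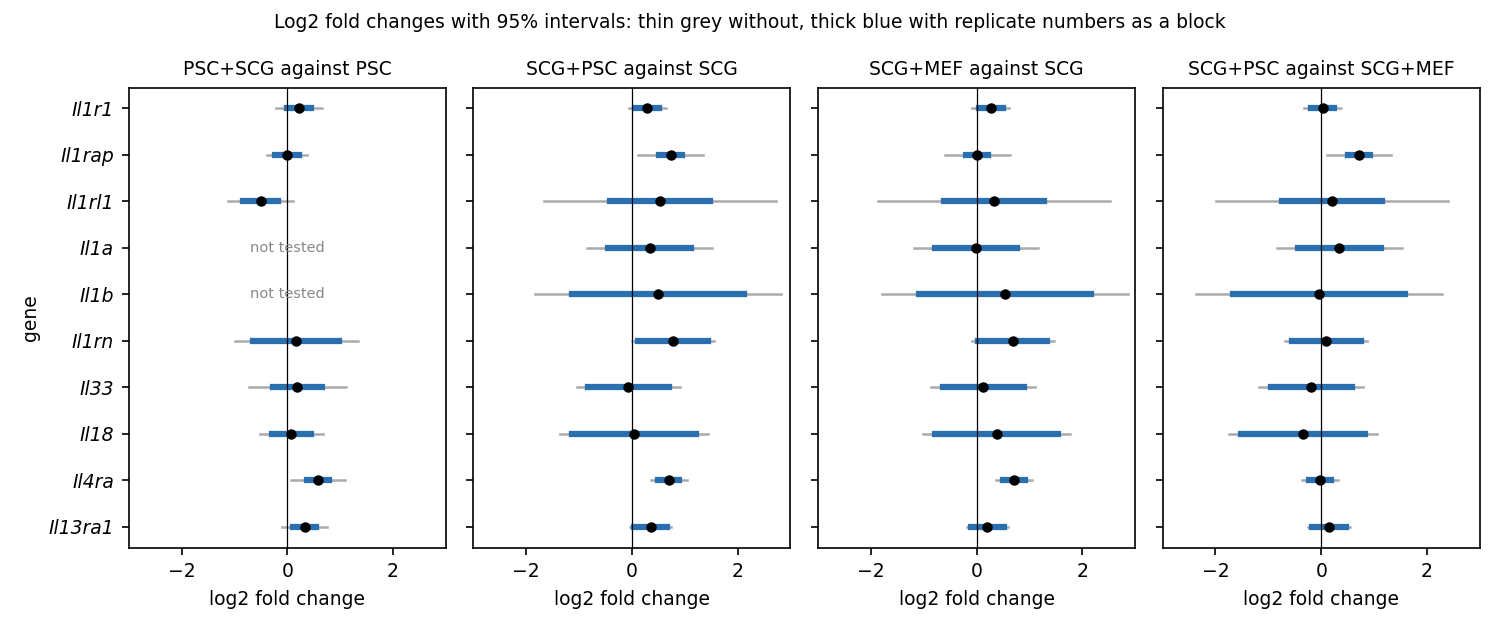
Log2 difference of each member (y axis) in the 4 comparisons (panels), with the difference on the x axis. Dots are estimates, thin grey lines are 95% intervals without and thick blue lines with the replicate block. Il4ra sits at 0.58, 0.69 and 0.71 in the first 3 panels and at -0.02 in the last, and Il1rap at -0.01, 0.73, 0.01 and 0.72.

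In PSCs, the reverse direction of the same coculture, Il4ra was again the member with the clearest difference. Here it was tested, because the study named it from the ganglion comparisons. The members were, however, chosen with earlier results of these data known. PSCs alone held 5278, 2939 and 4078 normalized counts in replicates 1, 2 and 3, and PSC+SCG libraries held 6785, 4827 and 6501. The 2 ranges overlapped, but within each number the cocultured library was higher, at 1.29, 1.64 and 1.59 times. Group means were 4098 ± 1170 (SD, n = 3) and 6038 ± 1058 (n = 3).

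The log2 difference of Il4ra in PSCs was 0.58 (SE 0.22, 95% interval 0.07 to 1.09). Without the block it did not pass limma's test (adjusted p = 0.9999), and 0 of 14541 protein-coding genes did (0%). Of those genes, 205 had an unadjusted p under 0.05, a share below the 0.05 expected with no differences. With the block the SE fell to 0.10 and the adjusted p to 0.00619, so Il4ra was the 1 of 8 tested members called, beside a background of 0.523%. Under the block, leaving out either library of pair 2 ended the call (adjusted p = 0.106 and 0.104 in limma), and leaving out a library of pair 1 or 3 did not (0.00253 to 0.0231). On the recovered reads of 5 PSC libraries, without PSC+SCG replicate 1, Il4ra was called with the block by edgeR (adjusted p = 0.0277, background 0.257%) and DESeq2 (adjusted p = 0.00285, background 0.305%), and by neither without it (backgrounds of 0% and 0.0139%). Those libraries hold no complete pair 1, the pair with the smallest ratio (1.29), so the calls with the block rest on pairs 2 and 3. No member had PSC groups of 3 that did not overlap, where 4.37% of genes had.

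Il1rap did not follow Il4ra in PSCs. PSCs alone held 1639, 1371 and 1692 normalized counts of Il1rap and PSC+SCG libraries held 1849, 1279 and 1585, so the ranges overlapped and 1 of 3 pairs was higher. The log2 difference was -0.01 (95% interval -0.38 to 0.37, narrowing to -0.23 to 0.22 with the block). Whether the 2 tissues differ in this response was not tested, since they were normalized apart.

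Il1rl1, the ST2 receptor gene, was the member with the highest level per kb in PSCs and the only one with a sizeable lower estimate in coculture. PSCs alone held 4765, 10211 and 9871 normalized counts and PSC+SCG libraries held 6000, 5074 and 5558. Replicate 1 of PSCs alone thus stood well below its sister libraries, and the cocultured libraries were close together. Within pairs the cocultured library held 1.26, 0.497 and 0.563 times the level of PSCs alone, so pairs 2 and 3 were lower and pair 1 higher. The log2 difference was -0.50 (SE 0.27; 95% interval -1.12 to 0.12), and it was not called with the block either (adjusted p = 0.203 in limma). Leaving out either library of pair 1 under the block gave -0.92 with an adjusted p of 0.00728 or 0.0039, so the call turned on that pair. The count tests on 5 PSC libraries, which hold no complete pair 1, also called it with the block (edgeR adjusted p = 0.0094, DESeq2 adjusted p = 1.75e-06) and not without.

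**Figure D4:**
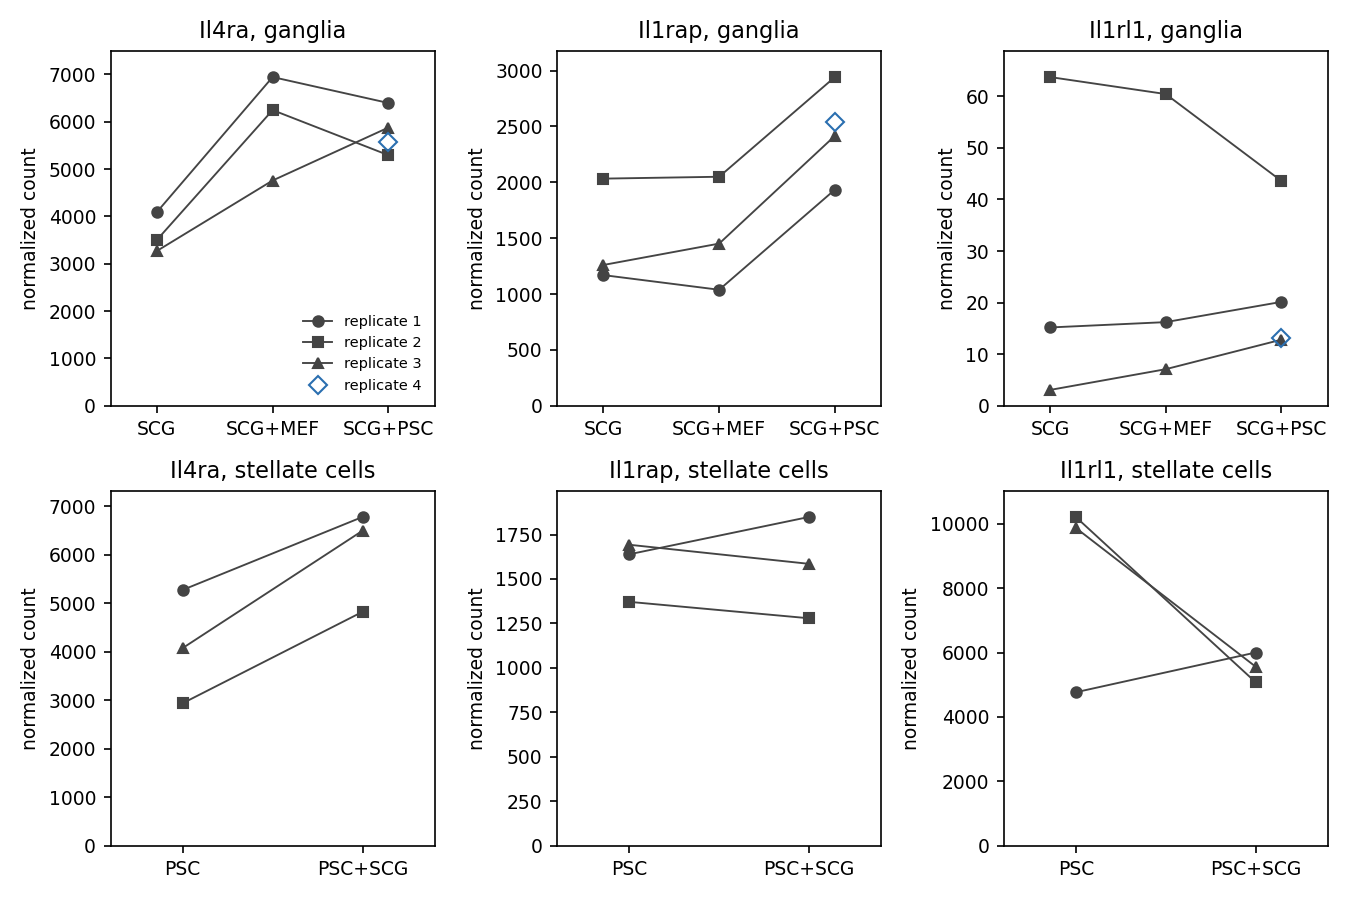
Normalized counts (y axes, from 0) of Il4ra, Il1rap and Il1rl1 by group (x axes) in ganglia (top) and PSCs (bottom), with lines joining libraries of the same replicate number and an open diamond for the unpaired SCG+PSC replicate 4. All Il4ra lines are higher in the cocultured groups than in the left group, all 3 Il1rap lines in ganglia are higher in SCG+PSC than in SCG and SCG+MEF, and for Il1rl1 in PSCs 2 lines are lower in PSC+SCG, at 0.497 and 0.563 times, while 1 is higher.

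The partner chain Il13ra1 was higher in PSC+SCG in all 3 pairs, with 2499, 2202 and 1963 normalized counts in PSCs alone against 3520, 2807 and 2179. Its log2 difference of 0.33 (SE 0.19) was not called (limma adjusted p = 0.2 with and 0.9999 without the block). Il1r1 held 2523, 1888 and 2219 against 3361, 2331 and 2155, higher in 2 of 3 pairs, with a log2 difference of 0.22 (SE 0.19) and an adjusted p of 0.593 with the block in limma. Il33 spanned 131 to 188 alone and 89.4 to 290 with ganglia. Il18 spanned 146 to 241 and 161 to 253, and Il1rn 12.5 to 27.9 and 12.8 to 36.6. None of these 3 was called under either fit.

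**Figure D5:**
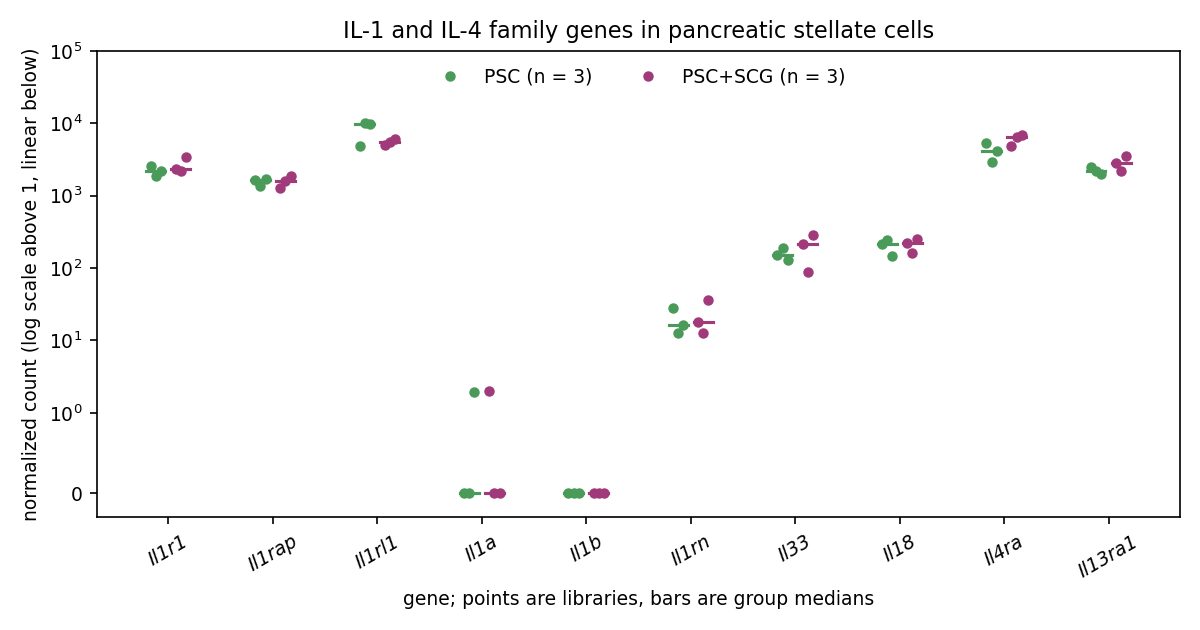
Normalized counts (y axis, log scale above 1) of the 10 members (x axis) in each PSC library, with points for libraries and bars for group medians. Il1rl1 lies between 4765 and 10211 in PSCs alone and between 5074 and 6000 with ganglia, Il1b is at 0 in all 6 libraries and Il1a at or near 0.

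Around these members, the rest of the pathways was read from lists. Without the block, 0 genes of any list were called in any comparison. Of 13 other IL-1 family ligands and receptors, 7 were tested in PSCs and 8 in ganglia, and 0 were called with the block. The median log2 difference of that list was -0.01 in PSCs, 0.02 with PSCs against SCG and 0.10 with MEFs against SCG, beside 0.01, 0.01 and 0.03 for all genes. Among them, singled out after its values were seen, Il18rap (an IL-18 receptor chain) held 1074 to 2174 normalized counts across PSC libraries, while its partner Il18r1 held at most 9.08.

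All 17 IL-1 receptor signalling genes, such as those for MyD88, IRAK kinases and TRAF6, were tested in each comparison and 0 were called with the block. Their median log2 differences were 0.01 in PSCs, 0.01 with PSCs against SCG and 0.07 with MEFs against SCG. Of 8 inflammasome and IL-1 processing genes, only Gsdmd, which encodes the pore former gasdermin D, was called with the block, in SCG+PSC against SCG. It held 144, 200 and 118 normalized counts in SCG, 244, 301 and 218 in SCG+MEF and 229, 307, 216 and 179 in SCG+PSC. Its log2 difference from SCG was 0.72 with PSCs (SE 0.24; limma adjusted p = 0.0215 with and 1 without the block) and 0.74 with MEFs (adjusted p = 0.0669 with the block), and the cocultures differed by -0.03. The call with PSCs stood in 3 of 9 fits that left out 1 library.

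Of 17 NF-κB response genes, 16 were tested in each table. In PSCs only the chemokine gene Cxcl5 was called with the block. The study had already named it from this comparison, so it is described without a test. It went from 802, 555 and 905 normalized counts to 1317, 813 and 1272, a log2 difference of 0.59 (SE 0.24). The list had a median of 0.24 there, beside 0.01 for all genes, with 13 of 16 above 0. In ganglia the list had a median of 0.0006 with PSCs against SCG (8 of 16 above 0) and -0.03 with MEFs (7 of 16), beside 0.01 and 0.03 for all genes. With the block, 2 of 16 were called with PSCs and 1 of 16 with MEFs, all lower, beside backgrounds of 1.94% and 0.239%. Ptgs2, which encodes cyclooxygenase 2, fell by 1.18 on the log2 scale with PSCs and by 1.22 with MEFs, from 735, 1302 and 1284 normalized counts in SCG to 313, 741, 451 and 417 in SCG+PSC and 383, 653 and 388 in SCG+MEF. Limma's adjusted p with the block was 0.00568 and 0.00782, and 1 without it. Csf1, the macrophage growth factor gene, fell by 0.65 with PSCs (limma adjusted p = 0.0218 with and 1 without the block). It held 2660, 10586 and 5389 normalized counts in SCG, 2503, 8346 and 3268 in SCG+MEF and 2290, 6504, 2632 and 2320 in SCG+PSC. Csf1 was thus also lower with MEFs within each replicate number, where it was not called. The calls of Cxcl5, Ptgs2 with PSCs, Ptgs2 with MEFs and Csf1 stood in 2 of 6, 9 of 9, 7 of 9 and 4 of 9 fits without 1 library. In the PSC table, leaving out either library of a pair left the same pairs to estimate the difference. The 6 fits were thus not 6 separate checks.

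Of 14 IL-4 and IL-13 ligand, receptor and signalling genes, 12 were tested in each table. Socs3, a feedback inhibitor of JAK signalling, rose in PSCs with the block, from 1902, 1127 and 1080 normalized counts to 2095, 2144 and 1616. Its log2 difference was 0.55 (limma adjusted p = 0.048 with and 0.9999 without the block), and the call stood in 4 of 6 fits without 1 library. As for Cxcl5, leaving out either library of a pair left the same pairs. No gene of this list was called in ganglia. The ligand genes Il4 and Il13, looked up after the receptor values were seen, held at most 1 normalized count in every one of the 16 libraries, which bears on transcripts in these cultures and not on cytokine in the medium. Il2rg, the common γ chain, looked up in the same way, held 132 to 219 in ganglia and 3 to 19.3 in PSCs.

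Of 12 IL-4 response genes, 7 were tested in PSCs and 8 in ganglia. Mrc1, the macrophage mannose receptor gene, was the only one called with the block, in SCG+PSC against SCG. The study had already singled it out in these libraries, so it is described without a test. SCG libraries held 149, 283 and 163 normalized counts, SCG+MEF libraries 346, 361 and 266, and SCG+PSC libraries 390, 427, 452 and 513. The SCG+PSC libraries lay above all others, at a log2 difference of 1.15 (SE 0.24) from SCG. The list, Mrc1 included, had a median log2 difference of 0.02 in PSCs, beside 0.01 for all genes. Against SCG the median was 0.25 with PSCs and -0.04 with MEFs, beside 0.01 and 0.03. Between the cocultures it was 0.32, with 8 of 8 genes above 0, beside -0.02 for all genes.

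Markers of other cell types were set beside these results. The 14 macrophage markers, Mrc1 among them, summed to 9768 to 15719 in SCG, 10344 to 15039 in SCG+MEF and 10755 to 13460 in SCG+PSC. The 7 fibroblast markers summed to 208256 to 390833, 286399 to 405357 and 281765 to 390570, and 2 of them were called higher with the block: Lum with PSCs (log2 difference 0.65) and with MEFs (1.29), and Dcn with MEFs (0.74). These calls stood in 5, 8 and 4 of 9 fits without 1 library. Lum was also lower in SCG+PSC than in SCG+MEF, by 0.64 on the log2 scale, a call that stood in 2 of 9. Lum in both comparisons with SCG, and Dcn with MEFs, thus differed alongside Il4ra, while the sums of the 7 markers overlapped between groups. Of the 7, 6 had estimates above 0 in both comparisons with SCG. Their medians were 0.38 with PSCs and 0.41 with MEFs, beside 0.01 and 0.03 for all genes. The part of fibroblasts in the Il4ra difference was not tested. Of 7 glial markers, Fabp7 was lower with MEFs than in SCG or SCG+PSC, by 0.50 and 0.56 on the log2 scale (calls that stood in 2 and 5 of 9 fits), and apart from Mrc1 no gene of the other marker lists was called in ganglia. The 5 endothelial markers had a median log2 difference from SCG of 0.76 with PSCs and 0.43 with MEFs, with 4 of 5 above 0, beside 0.01 and 0.03 for all genes. Among them, singled out after their values were seen, Tie1 held 46.1 to 146 normalized counts in SCG, 100 to 131 in SCG+MEF and 157 to 203 in SCG+PSC, and Kdr 115 to 225, 206 to 271 and 263 to 307. Emcn, the most abundant of the 5, had lower means in both cocultures, and the list summed to 3444 to 4330, 3526 to 4410 and 4020 to 4229. The part of endothelial cells in the member differences was not tested. Of 4 T cell markers 3 were at 0 in every ganglion library. In PSC libraries 7 to 9 of the 14 macrophage markers were at 0, the 9 neuron markers summed to at most 45.7, and 0 of the marker genes tested were called.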

How the data were processed

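Each library was a stranded mRNA library read on a NovaSeq 6000. Per the authors' methods, reads were aligned to GRCm39 with STAR 2.7.10b, counted per gene in stranded mode on GENCODE M33 basic, and scaled with DESeq2 1.38.3 in R 4.2.2, separately for PSCs and ganglia. The deposited signal values are those counts divided by size factors. No column of the authors' own comparisons was used. Whole reads were recovered (all values whole within 0.01 reads) in 14 of 16 libraries, and edgeR 4.0.16 and DESeq2 1.42.0 were run on 9 ganglion libraries and on the 5 PSC libraries with recovered reads. PSC+SCG replicate 1 and SCG+PSC replicate 4, where reads could not be recovered, stayed as deposited.

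Genes summing to at least 10 in a table were fitted with limma 3.58.1 (R 4.3.3, trend) on log2(normalized count + 1), a scale that understates changes of low genes, with Benjamini-Hochberg adjustment over all genes. Each ganglion fit used 9 libraries, replicates 1 to 3 of every ganglion group, as in the overview plots of the study, and the unpaired replicate 4 entered alternatives. The study's batch term could not be used because no label ties a library to a batch. Deviations from group means correlated within every replicate number (r = 0.469 to 0.703 over 3 pairs in PSCs, 0.251 to 0.624 over 9 pairs in ganglia). Between different numbers r was -0.5285 to 0.238 over 6 pairs in PSCs and -0.453 to 0.0355 over 18 in ganglia. The highest of these, 0.238, joined PSC replicate 1 and PSC+SCG replicate 2. The numbers were therefore taken to pair the libraries. Levels per kb used the union of GENCODE M39 exons, which is a later release than the one counted. The fits were run on simulated data with a preset spread between replicates and no low genes. That run therefore says nothing of the error rates in these libraries. Alternatives were other pseudocounts, filters, quantile normalization, the block, other libraries and count tests.

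Members and lists were chosen with earlier results of these data known. Named were the 10 members and, from each list, up to 4 called genes with the largest difference per comparison. Defining cell type markers could be named for their level, and other genes named are marked.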

Additional observations from a re-analysis of the deposited data

How the results depend on the processing

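The count of called protein-coding genes depended on the fit. Without the replicate block it was 0 in PSCs, 3 in both comparisons with SCG and 0 between the cocultures. With the block it was 76 in PSCs, 309 for SCG+PSC against SCG, 38 for SCG+MEF against SCG and 181 between the cocultures. DESeq2 on recovered reads called 55, 21 and 18 genes in the 3 ganglion comparisons and 415, 105 and 365 with the block, where edgeR called 323, 36 and 206. On 5 PSC libraries, without PSC+SCG replicate 1, DESeq2 called 2 genes and edgeR 0 without the block, and 44 and 37 with it. All 4 SCG+PSC replicates gave 8 for SCG+PSC against SCG, and fits of only the 2 groups compared gave 1 in each comparison with SCG. Leaving out 1 library without the block gave 1 to 2 for SCG+PSC and 0 to 3 for SCG+MEF against SCG. With the block it gave 38 to 166 in PSCs, 32 to 367 and 5 to 77 against SCG, and 0 to 298 between the cocultures. These fits have fewer samples, and the count tests with the block, those on PSC libraries and the block fits without 1 library were added after the data were seen.

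Members called were 0 without the block in limma. With the block there were 1 in PSCs, 2 for SCG+PSC against SCG, 1 for SCG+MEF against SCG and 1 between the cocultures. EdgeR and DESeq2 with the block called as many in ganglia (2, 1 and 1). On the 5 PSC libraries, which hold no complete pair 1, both called 2 members with the block, Il4ra and Il1rl1. Leaving out 1 library under the block gave 0 to 2, 0 to 2, 0 to 1 and 0 to 1. DESeq2 without the block called 1 in each comparison with SCG. The block changed no other member's call. All ganglion calls were of Il4ra or Il1rap, which were chosen from these contrasts, so nothing is read from the ganglion counts.

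Log2 differences of Il4ra in the 3 comparisons with a control, of Il1rap with PSCs, of Il1r1 and Il13ra1 against a control, of Il1rn in ganglia against SCG and of Il1rl1 in PSCs kept their direction under every alternative run. The remaining ones, all near 0 or of low genes, changed sign under at least 1, and the cause was not tested. Leaving out 1 library gave the following values. In PSC+SCG against PSC the ranges were -0.13 to 0.26 for Il18, -0.13 to 0.13 for Il1rap, -0.24 to 0.49 for Il1rn, -0.16 to 0.69 for Il33. In SCG+PSC against SCG the ranges were -0.53 to 0.77 for Il18, -0.13 to 0.74 for Il1a, -0.0093 to 1.22 for Il1b, -0.46 to 1.53 for Il1rl1, -0.41 to 0.32 for Il33. In SCG+MEF against SCG the ranges were -0.19 to 1.11 for Il18, -0.48 to 0.51 for Il1a, -0.21 to 1.80 for Il1b, -0.66 to 1.33 for Il1rl1, -0.36 to 0.51 for Il33. In SCG+PSC against SCG+MEF the ranges were -0.010 to 0.29 for Il13ra1, -0.60 to 0.017 for Il18, -0.18 to 0.72 for Il1a, -1.31 to 0.70 for Il1b, -0.11 to 0.13 for Il1r1, -0.47 to 0.99 for Il1rl1, -0.28 to 0.32 for Il1rn, -0.53 to 0.30 for Il33. In SCG+PSC against SCG, Il1rl1 came to -0.10 with DESeq2 and -0.11 with edgeR, and Il33 to 0.0017 with all 4 SCG+PSC replicates. Il18 came to -0.13 with all 4 replicates, -0.074 with replicates 1, 2 and 4, -0.36 with DESeq2, -0.35 with edgeR, -0.055 with edgeR and the block and -0.049 with a pseudocount of 8. In SCG+MEF against SCG, Il1a came to 0.0028 with DESeq2 and the block, 0.00085 with edgeR and the block and 0.0080 with quantile normalization. Between the cocultures, Il1rl1 came to -0.13 with DESeq2 and -0.14 with edgeR, and Il1b to 0.31 with all 4 replicates, 0.57 with replicates 1, 2 and 4 and 0.18 with a pseudocount of 0.5. Il1rap in SCG+MEF against SCG (-0.23 to 0.26) and Il4ra between the cocultures (-0.17 to 0.10) also changed sign when 1 library was left out. On 5 PSC libraries, Il33 came to -0.040 with DESeq2 and -0.043 with edgeR (-0.17 and -0.15 with the block), Il1rn to -0.32 with either, and Il18 to -0.079 and -0.084 (-0.0060 and -0.012 with the block). Counting error is proportionally larger for Il1b, Il18 and Il1rl1 in ganglia, whose counts were low, and its share in their spread was not tested.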
